A study of Homo sapiens with 11 samples.

Results

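The comparison set out here asks whether decitabine changed the transcripts of HCT116 cells by a different amount after knockdown of Staufen1, and whether any such difference lay in the level before the drug or in the level under the drug. HCT116 is an established human colorectal cancer cell line. The total RNA libraries fell into 4 groups, each with 2 libraries: cells given an siRNA against luciferase (siLuc, the control) with the solvent DMSO, siLuc with decitabine (DAC, 500 nM for 5 days), cells given an siRNA against Staufen1 (siStau1) with DMSO, and siStau1 with DAC. Both treatments were therefore set against a transfected control, and the knockdown rests on a transient siRNA rather than on a deleted gene. The labels do not say whether the 2 libraries of a group came from separate cultures. Libraries of RNA bound by the J2 antibody, which recognises double-stranded RNA, were not used here.

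Genes entered when their FPKM (fragments per kilobase of transcript, scaled to library size) was at least 1 in 1 or more of the 4 groups, which 16045 of 58699 genes met (27.3%). For each of them the log2 ratio of DAC over DMSO was taken in siLuc and in siStau1, with 0.1 FPKM added to every value, and the first was subtracted from the second. This value, called the difference, is above 0 where the DAC ratio was higher in siStau1. It equals the siStau1 over siLuc ratio with DAC minus the same ratio with DMSO, so each gene can be placed by the larger of these knockdown ratios. A difference was said to lie in the baseline where at least 2/3 of the summed size of both knockdown ratios was the ratio with DMSO, in the drug level where at least 2/3 was the ratio with DAC, and otherwise in both. Just inside the FPKM threshold were GPR155 (highest FPKM 1.0003, difference 0.54), CBX3P2 (1.0004, −2.01) and AC005102.1 (1.0009, 1.70). Just outside were AC073508.2 (0.9998, 1.25), DACT3 (0.9994, −0.78) and AC106782.6 (0.9989, −1.93).

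Decitabine is a cytidine analog that traps DNA methyltransferases, so that methylation is lost as cells divide and silenced genes and repeats can be transcribed. Double-stranded RNA made from such repeats is sensed by MDA5 (gene IFIH1) and RIG-I (gene DDX58), which signal through MAVS to induce type I and type III interferons. Secreted interferon acts on its receptors through JAK kinases and a transcription factor complex that holds STAT2 and IRF9, which binds the interferon-stimulated response element in the promoters of interferon-stimulated genes. Staufen1 is a protein that binds double-stranded RNA and is known for roles in mRNA decay, transport and translation.

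The deposited table holds 1 FPKM value per group and not per library, so no spread between the 2 libraries of a group can be given, the depth is unknown, and no test of the difference across libraries was possible. An error was recovered from the test scores of the authors' deposited table. Each score was read as the log2 ratio of the 2 groups divided by its standard error (SE), which the sources used here do not state. Squared errors summed to the same total in the 3 ways of pairing the 4 groups, with ratios within 0.001 of 1 for 14030 of 14063 genes, so the SE of the difference was taken from that sum. The sums would be equal under any common scale factor too, so they do not show that the scale of the SE is right. If the reading holds, the SE is a model-based error of the authors' program. It is given for 13784 measured genes, with a median of 1.29 on the log2 scale. Read as normal scores with Benjamini-Hochberg adjustment over these genes, 0 differences passed 0.05 and the smallest adjusted value was 1.00. An unadjusted value under 0.05 was found for 32 (0.232%), and 510 (3.70%) were at 1 SE or more. Both shares are far below those of normal scores without any effect, so the SE is wide for these differences. The same normal reading of the pairwise scores is stricter than the authors' own calls, giving 320 against 1907 genes for DAC in siLuc and 6 against 94 for the knockdown with DMSO. Pairwise scores of 2 to 2.5 had a median authors' p-value of 0.00195, against 0.0244 for a normal score at the middle of that range. The marks of 1 SE and 2 SE below are thus a scale and not levels of confidence. Differences below are given as value ± SE and described as at or beyond 2 SE, or not, and nothing is called from them.

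STAU1, the targeted gene on chr20, had siLuc values of 35.5 (DMSO) and 33.7 (DAC) FPKM and siStau1 values of 29.98 (DMSO) and 27.1 (DAC). The siStau1 groups thus stood at 84.4% of siLuc with DMSO and 80.4% with DAC. Neither comparison was called in the authors' deposited table (q-values 0.77 and 0.68), so the labelled knockdown shows in these mRNA levels only as a slight decrease that did not pass the authors' test. The difference for STAU1 was −0.07 ± 0.67, and that for its paralog STAU2 was 0.65 ± 1.61. In the following, siStau1 means the groups so labelled. Where 4 FPKM values follow each other without labels, they are in the order siLuc without and with DAC, then siStau1 without and with DAC.

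Across the 16045 genes the median difference was −0.03, with quartiles at −0.47 and 0.37. It was at least 1 for 1213 genes (7.56% of those measured) and at most −1 for 1710 genes (10.7%). Many of these rested on low values: of 1751 genes that reached 1 FPKM in a single group, 22.6% were higher and 37.2% lower by this rule, against 3.68% and 4.97% of the 11934 genes that reached it in all 4 groups. Among the 1213 higher genes, 581 lay in the baseline (47.9%), 346 in the drug level (28.5%) and 286 in both (23.6%). Among the 1710 lower genes the numbers were 598, 567 and 545. Both a size of 1 and 2 SE were reached by 17 higher genes (0.123% of those with an SE) and 11 lower genes (0.0798%). Of 8 markers of colon epithelium 6 were measured, including KRT8 (834 to 3159 FPKM over the groups) and EPCAM (117 to 338 FPKM), while CDX1 is listed at 0 with DMSO and reached at most 0.947 FPKM with DAC, and VIL1 reached at most 0.198 FPKM. By contrast, the summed level of 4 endothelial markers was at most 1.60 FPKM and the summed levels of lymphoid, myeloid and fibroblast lists at most 18.6 FPKM in any group.

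The interferon-stimulated genes carried the clearest pattern: without the drug siStau1 held less of them than siLuc, and with DAC that gap had narrowed. All 44 genes of the list were measured, and all 44 were lower in siStau1 than in siLuc with DMSO, at a median of 31.2% of the siLuc level. With DAC, 36 of 44 were lower in siStau1, at a median of 63.6%. The difference was at least 1 for 22 of 44 (50%, against 7.56% of all measured genes) and at most −1 for 0, with a median of 1.01 against −0.03 over all genes. The median DAC log2 ratio was 0.96 in siLuc and 1.98 in siStau1. Of the 22 higher members 17 lay in the baseline, 4 in both and 1 in the drug level. The authors' deposited table called 23 of 42 tested members lower and 0 higher in siStau1 with DMSO (0.45% and 0.279% of all measured genes tested), and 9 of 44 lower and 1 higher with DAC (0.459% and 0.466%). In bulk RNA, fewer responding cells and less RNA per responding cell cannot be told apart. Since the 2 DAC comparisons and the 2 knockdown comparisons are built from the same 4 groups, each is a restatement of the same values and not separate support.

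The promoters of the members that reached 2 SE are shown first because the response element named above can be seen in them. Each line gives the 150 bases before the transcription start in RefSeq (build GRCh38.p14), 5′ to 3′ on the strand of the gene, and capitals mark every match to a pattern of the response element, GAAA and GAAA with 2 bases of any kind between them, or to its reverse complement, TTTC and TTTC with 2 bases between. RTP4, the member with the lowest difference (−0.64), is added for contrast.
IFITM1 (chr11:313890-314039, plus strand): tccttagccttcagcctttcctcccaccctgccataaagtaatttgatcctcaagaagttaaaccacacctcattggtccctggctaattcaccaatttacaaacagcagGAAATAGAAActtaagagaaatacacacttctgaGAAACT
IFI27 (chr14:94110586-94110735, plus strand): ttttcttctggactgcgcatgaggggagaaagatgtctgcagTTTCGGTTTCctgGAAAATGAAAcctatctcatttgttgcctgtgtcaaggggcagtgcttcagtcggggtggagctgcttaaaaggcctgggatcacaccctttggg
BST2 (chr19:17405631-17405780, minus strand): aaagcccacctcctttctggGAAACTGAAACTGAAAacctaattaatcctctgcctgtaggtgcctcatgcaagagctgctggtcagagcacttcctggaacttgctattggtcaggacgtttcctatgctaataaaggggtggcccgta
IFI44 (chr1:78649639-78649788, plus strand): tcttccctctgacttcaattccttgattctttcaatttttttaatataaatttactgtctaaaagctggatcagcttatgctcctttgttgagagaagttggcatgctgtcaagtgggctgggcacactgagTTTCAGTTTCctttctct
IFIT1 (chr10:89392473-89392622, plus strand): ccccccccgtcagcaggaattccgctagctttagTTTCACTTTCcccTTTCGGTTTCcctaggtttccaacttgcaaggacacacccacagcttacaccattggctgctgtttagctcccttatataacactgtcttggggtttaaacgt
SAMD9 (chr7:93117980-93118129, minus strand): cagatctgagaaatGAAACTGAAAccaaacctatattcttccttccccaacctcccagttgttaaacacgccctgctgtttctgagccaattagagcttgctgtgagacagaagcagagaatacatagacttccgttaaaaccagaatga
RTP4 (chr3:187368235-187368384, plus strand): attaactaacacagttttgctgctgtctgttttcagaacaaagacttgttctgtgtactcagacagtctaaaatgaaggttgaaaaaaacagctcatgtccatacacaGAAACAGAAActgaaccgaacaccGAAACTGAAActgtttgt
In IFITM1 the last match runs on past the start site, where the printed stretch ends. All 6 promoters and that of RTP4 hold the pattern at least once, so its presence did not separate RTP4 from the 6. With a pseudocount of 0.01 FPKM the difference of RTP4, whose DMSO values are under 0.1 FPKM, was 0.20. Over the full RefSeq window of 250 bases before to 50 after the start, the pattern was found in 25 of the 36 list members with an entry (69.4%), against 1255 of 35116 promoters in all (3.57%). It was present in 11 of 18 members with a difference of at least 1 (61.1%) and in 14 of 18 with a smaller one (77.8%). Over all measured protein-coding genes with an entry, list members included, it was found in 2.86% of 10290. Among those with a difference of at least 1 it was found in 30 of 428 (7.01%), of which 11 are the list members just counted. Among those with a difference of at most −1 it was found in 2.39% of 585. A match to these letters is a description of the window and not evidence that a factor was bound there.

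IFITM1, a membrane protein that restricts virus entry, had siLuc values of 191 (DMSO) and 562 (DAC) FPKM and siStau1 values of 8.80 (DMSO) and 239 (DAC). The siStau1 DMSO group was far below the other 3, and the siStau1 DAC group was above siLuc DMSO and below siLuc DAC. In log2 units the DAC ratio was 1.55 in siLuc and 4.75 in siStau1, a difference of 3.19 ± 1.06. IFI27, a mitochondrial protein that is a standard marker of interferon exposure, had 402, 1138, 37.2 and 592 FPKM in the same order and a difference of 2.49 ± 0.79. BST2, which tethers budding virus particles, had 116, 189, 11.3 and 105 FPKM and a difference of 2.497 ± 1.12. For all 3 genes the siStau1 level was under 10% of siLuc with DMSO (4.60%, 9.25% and 9.80%) and between 42.5% and 55.8% with DAC. The authors' deposited table called each of them higher with DAC in siStau1 (q-value 0.0016 for all 3) and lower in siStau1 with DMSO (again 0.0016). The authors' deposited table also called IFITM1 and IFI27 higher with DAC in siLuc (q-values 0.0029 and 0.0016) and lower in siStau1 with DAC (0.030 and 0.0498), while BST2 was called in neither (0.23 and 0.072).

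A further group was lower with DAC in siLuc and higher with DAC in siStau1, so that siStau1 ended level with or above siLuc under the drug. IFIT1, which binds viral RNA ends that lack the cellular cap structure, had siLuc values of 207 (DMSO) and 83.6 (DAC) FPKM and siStau1 values of 79.4 (DMSO) and 125 (DAC), a difference of 1.96 ± 0.97. IFI44 had 46.1, 18.9, 13.7 and 26.1 FPKM in the same order and a difference of 2.21 ± 0.91. In both genes siLuc DMSO was the highest group and siStau1 DAC the next. The authors' deposited table called neither gene for DAC in siLuc (q-values 0.12 for IFIT1 and 0.051 for IFI44) or in siStau1 (0.53 and 0.25). DDX60 (1.53 ± 1.04), PLSCR1 (1.22 ± 0.72) and PARP9 (1.03 ± 1.02) showed the same order of signs. SAMD9, a cytoplasmic restriction factor of poxviruses, was the member placed in the drug level: with DMSO its FPKM was 31.0 in siLuc and 24.4 in siStau1, and with DAC 11.4 and 30.03. Its level in siStau1 was thus 78.8% of siLuc with DMSO and 263% with DAC, and the difference was 1.73 ± 0.67.

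Of the 44 members, 9 had a DAC ratio below 0 in siLuc, and 8 of these had one above 0 in siStau1. The authors' deposited table called 1 of the 9 lower with DAC in siLuc, SAMD9 (5.29% of all measured genes tested were called lower). It called 1 of the 9 higher with DAC in siStau1, DDX60 (4.44%). The opposite directions thus rest mostly on changes that the authors' table did not call. These 9 had transcripts of 36.0% to 44.1% GC, while the other 35, all above 0 in both arms, ranged from 37.8% to 67.2%. The median knockdown ratio with DAC was 0.38 for the 9 and −0.80 for the 35. After centring on genes of like GC content the median difference was 1.10 for the 9 and 1.09 for the 35. Across the 44 members, Spearman's rho with GC content was −0.68 for the knockdown ratio with DAC, −0.24 for that with DMSO and −0.22 for the difference, as a description over genes that share the same libraries.

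**Figure D1:**
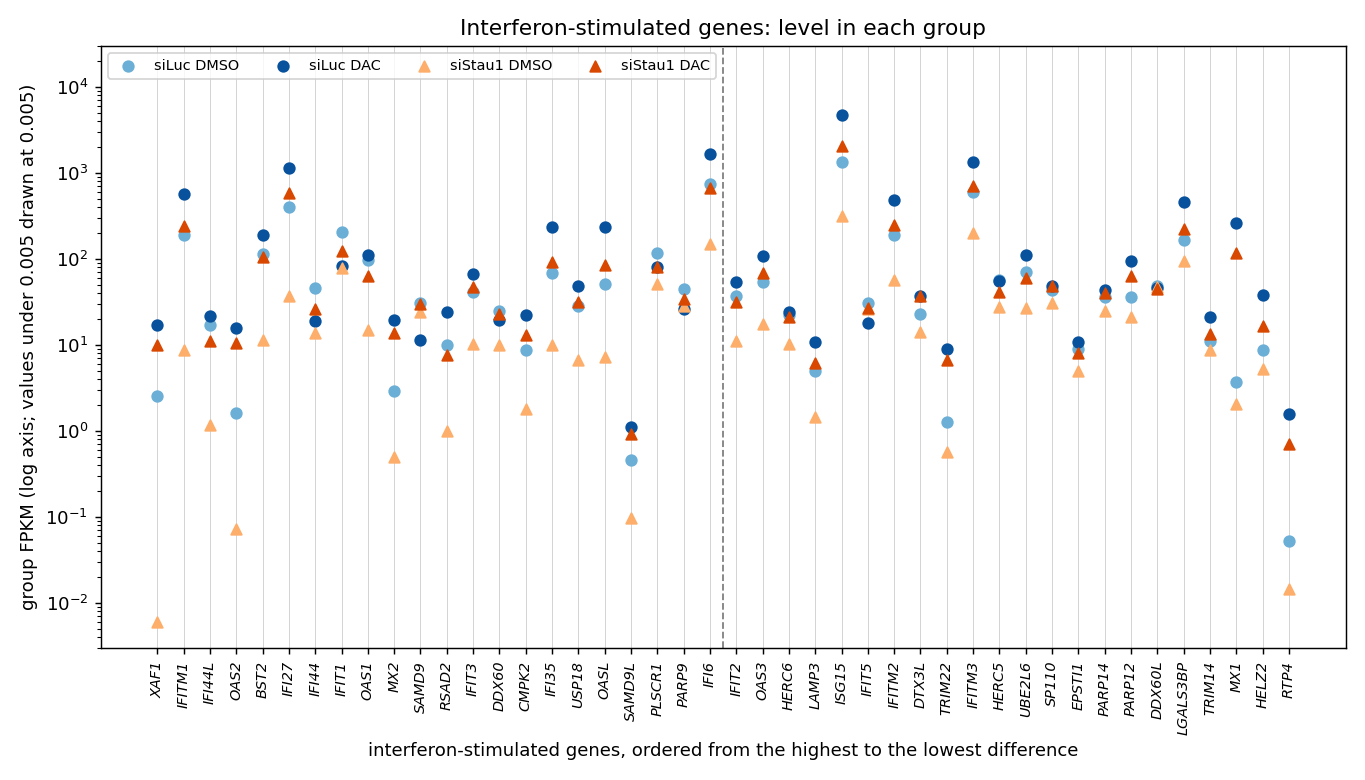
FPKM of the 44 interferon-stimulated genes (log axis) in the 4 groups, 1 point per group, ordered from the highest to the lowest difference, with the dashed line after the 22 genes at 1 or more. The siStau1 DMSO group (light triangles) is the lowest of the 4 in 40 of 44 genes, and siLuc DAC (dark circles) is the highest in 34.

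Several well-known members had high levels and a difference under 2 SE. ISG15, a ubiquitin-like modifier, had siLuc values of 1360 (DMSO) and 4708 (DAC) FPKM and siStau1 values of 320 (DMSO) and 2065 (DAC), a difference of 0.90 ± 0.70. IFI6 had 752, 1669, 150 and 675 FPKM and a difference of 1.02 ± 0.64. For OAS1, which makes the second messenger that activates RNase L, the values were 96.1, 111, 14.9 and 64.0 FPKM, a difference of 1.88 ± 2.16. In these 3 genes the siStau1 DMSO group was again the lowest. USP18, which removes ISG15 from proteins and damps receptor signalling, lay just under 2 SE at 1.42 ± 0.71, and IFI44L had 2.79 ± 1.47. XAF1 had the highest value of the list at 3.92, with no SE, because its level in siStau1 DMSO was 0.0060 FPKM.

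MX1 did not follow. This dynamin-like GTPase that blocks virus replication had siLuc values of 3.74 (DMSO) and 266 (DAC) FPKM and siStau1 values of 2.08 (DMSO) and 118 (DAC). Its level in siStau1 was 55.6% of siLuc with DMSO and 44.4% with DAC, and the difference was −0.35 ± 1.28. HELZ2 (−0.44 ± 1.40), TRIM14 (−0.30 ± 1.31), LGALS3BP (−0.23 ± 0.77), RTP4 (−0.64, no SE) and DDX60L (0.00 ± 1.64) were the other members at or below 0. After centring on GC content HELZ2 and LGALS3BP were at 0.01 and 0.04. In each of these 6, MX1 included, the siStau1 level was below siLuc both with DMSO and with DAC.

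Of the interferon genes, those of type III were highest in siLuc with DAC and lowest in siStau1 with DMSO. IFNL1, a type III interferon, had siLuc values of 3.97 (DMSO) and 15.5 (DAC) FPKM and siStau1 values of 0.0589 (DMSO) and 2.71 (DAC). The siStau1 level was 1.48% of siLuc with DMSO and 17.4% with DAC, and the difference was 2.204 ± 2.58. IFNL2 (1.99, 10.4, 0.0356 and 2.17 FPKM) and IFNL3 (3.35, 12.9, 0.124 and 1.83 FPKM) had differences of 1.74 ± 3.51 and 1.19 ± 2.43. These are near-identical copies whose reads may have been shared between them, and with a pseudocount of 1 FPKM both differences turned negative (−0.32 and −0.34). The authors' deposited table called all 3 lower in siStau1 with DAC, with q-values of 0.0073 (IFNL1), 0.038 (IFNL2) and 0.022 (IFNL3). IFNB1, the type I interferon of non-immune cells, had siLuc values of 2.63 (DMSO) and 1.27 (DAC) FPKM and a siStau1 value of 0.216 with DAC, and is listed at 0 in siStau1 with DMSO, so no fold is given.

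Receptor subunits had 6 of 6 differences above 0 and under 1. The values were 0.61 ± 1.70 for IFNAR1, 0.085 ± 1.996 for IFNAR2, 0.17 ± 1.02 for IFNLR1, 0.04 ± 0.99 for IL10RB and 0.35 ± 0.83 for IFNGR2. IFNGR1, a subunit of the receptor for interferon gamma, was the highest at 0.97 ± 0.90 and lay in the drug level. It had 14.5 and 21.5 FPKM in siLuc and siStau1 with DMSO and 4.88 and 14.3 FPKM with DAC. The authors' deposited table called it lower with DAC in siLuc (q-value 0.0194) and higher in siStau1 with DAC (0.0214). IFNE and IFNK, the other 2 ligands of the list, were under 1 FPKM in every group.

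Signal transducers downstream of the receptors showed 0 of 15 members at 1 or more and 2 at −1 or less (13.3%, against 10.7%), with a median difference of −0.16. STAT2, a transducer of type I and type III interferon signalling, had a difference of 0.05 ± 0.85, and IRF9, the DNA-binding subunit of its complex, one of 0.70 ± 1.78. IRF7, the factor that amplifies interferon transcription, had 11.8, 78.5, 6.11 and 32.9 FPKM and a difference of −0.31 ± 1.64. The members at −1 or less were SOCS1, a feedback inhibitor (−1.67 ± 3.27), and TYK2, a receptor-bound kinase (−1.204 ± 1.73), and both lay in the drug level.

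Among 20 measured genes of RNA sensing, 2 had a difference of at least 1 (10%, against 7.56% of all measured genes) and 0 of at most −1, with a median of 0.07. IFIH1 had siLuc values of 27.2 (DMSO) and 22.0 (DAC) FPKM and siStau1 values of 12.9 (DMSO) and 29.1 (DAC), a difference of 1.47 ± 0.74. DDX58 had 41.5, 51.7, 20.2 and 53.5 FPKM and a difference of 1.08 ± 0.63. Both sensors stood below siLuc with DMSO (47.5% and 48.7%) and at or above it with DAC (132% and 103%). The adaptor MAVS (−0.36 ± 0.63), the kinase TBK1 (0.17 ± 0.99), the RNA-activated kinase EIF2AK2 (0.55 ± 0.95) and the editing enzyme ADAR (−0.18 ± 0.96) had values within 1 SE of 0.

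For antigen presentation, the median knockdown log2 ratio was −0.85 with DMSO and −0.85 with DAC. HLA-B had siLuc values of 422 (DMSO) and 1113 (DAC) FPKM and siStau1 values of 183 (DMSO) and 542 (DAC), with siStau1 at 43.3% of siLuc with DMSO and 48.7% with DAC, and its difference was 0.17 ± 1.82. HLA-C had a difference of 0.18 ± 0.94. Of the 17 members, 2 reached 1 (11.8%, against 7.56%), namely PSMB9, an immunoproteasome subunit (1.04 ± 1.74), and B2M, the class I light chain (1.02 ± 0.77), and the median was 0.17. B2M had 1442 and 599 FPKM in siLuc and 800 and 675 FPKM in siStau1.

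For NF-kB genes and chemokines, 5 of 17 measured members were at 1 or more (29.4%, against 7.56% of all measured genes) and 1 at −1 or less (5.88%, against 10.7%), with a median of 0.26. CXCL8, a chemokine for neutrophils, had siLuc values of 6.06 (DMSO) and 14.9 (DAC) FPKM and siStau1 values of 2.14 (DMSO) and 19.9 (DAC), a difference of 1.87 ± 1.03. BIRC3, an inhibitor of cell death induced by NF-kB, had 3.67, 3.44, 2.83 and 7.19 FPKM and a difference of 1.40 ± 1.04, which lay in the drug level. CXCL10 (3.10 ± 5.26), CXCL11 (2.72, no SE) and CCL20 (1.69 ± 3.32) were at most 2.499 FPKM in any group. CCL5 was at 15.9% of siLuc with DMSO and 20.8% with DAC (difference 0.26 ± 1.31), and CXCL2 was the lowest member at −1.39 ± 1.46.

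**Figure D2:**
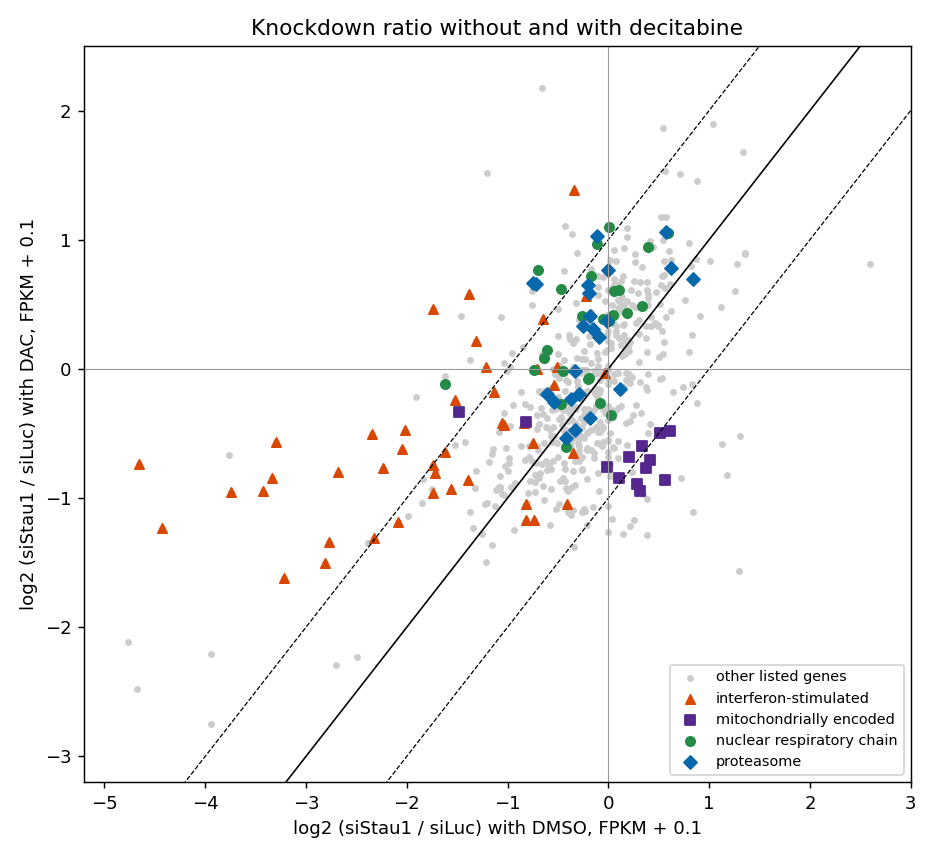
Log2 ratio of siStau1 over siLuc with DMSO (x axis) and with DAC (y axis) for 605 listed genes, 1 point per gene, with 4 genes beyond the axes not drawn. The solid line marks a difference of 0 and the dashed lines differences of 1 and −1: interferon-stimulated genes spread to the left, at a median of −1.54 on the x axis and −0.65 on the y axis, and mitochondrially encoded genes lie at 0.32 and −0.70.

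The 13 protein-coding genes of the mitochondrial genome leaned the other way. With DMSO 10 of 13 had a higher level in siStau1 than in siLuc (median 125%), and with DAC all 13 had a lower one (median 61.4%). The difference was at most −1 for 7 of 13 (53.8%, against 10.7% of all measured genes), with a median of −1.01, and 0 of the 7 reached 2 SE. Of these 7, 3 lay in the drug level and 4 in both. MT-ND1, a subunit of complex I, had siLuc values of 33.96 (DMSO) and 267 (DAC) FPKM and siStau1 values of 42.4 (DMSO) and 139 (DAC), a difference of −1.27 ± 0.68. MT-CO3, a subunit of complex IV, had 1093, 3212, 1675 and 2302 FPKM and a difference of −1.10 ± 0.72. DAC over DMSO was above 0 for all 13 genes in both arms, at median log2 values of 1.80 (siLuc) and 1.08 (siStau1). The authors' deposited table called 8 of 13 higher with DAC in siLuc (8.61% of all measured genes tested were called higher) and 7 of 13 in siStau1 (4.44%). MT-ND4L and MT-ATP8 overlap MT-ND4 and MT-ATP6, and reads from such pairs may have been assigned to either gene.

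MT-ND6, the only one of the 13 encoded on the opposite strand, did not share this direction. It had siLuc values of 46.7 (DMSO) and 68.4 (DAC) FPKM and siStau1 values of 16.7 (DMSO) and 54.4 (DAC). Its siStau1 level was 35.7% of siLuc with DMSO and 79.5% with DAC, and its difference of 1.15 ± 0.90 lay in the baseline. MT-ND3 was the other member above 0, at 0.40 ± 0.63.

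Nuclear genes of the respiratory chain leaned in the direction opposite to the mitochondrial ones. Of 27 members, 24 had a difference above 0 (against 7753 of all 16045 measured genes), and the median was 0.46. At 1 or more were 5 (18.5%, against 7.56%, and 4.39% of measured protein-coding genes). At −1 or less were 0 (against 10.7%, and 6.31% of measured protein-coding genes). In the highest of 10 bins of protein-coding genes by mean FPKM, 48 of 1069 were at 1 or more and 9 at −1 or less. The 0 of 27 is thus near the share in that bin. UQCRQ, a small subunit of complex III, had siLuc values of 909 (DMSO) and 638 (DAC) FPKM and siStau1 values of 295 (DMSO) and 588 (DAC), a difference of 1.51 ± 0.84 that lay in the baseline. NDUFB1, a small subunit of complex I, had 200, 50.1, 123 and 85.1 FPKM and a difference of 1.47 ± 0.83. The others at 1 or more were NDUFA4 (1.09 ± 1.26), NDUFS4 (1.09 ± 0.78) and NDUFB5 (1.08 ± 0.77). After centring on GC content 2 of the 27 remained at 1 or more, while the list median was 0.47. ATP5PD, a subunit of ATP synthase outside the list, reached 2 SE with 621, 133, 386 and 246 FPKM and a difference of 1.57 ± 0.77.

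Proteasome subunits gave a like picture, with 18 of 23 above 0 (against 7753 of all 16045 measured genes) and a median of 0.38. At 1 or more were 3 (13.0%, against 7.56%), and 0 were at −1 or less (against 10.7%). Abundant mRNAs in general leaned this way: the highest of 10 bins of protein-coding genes by mean FPKM had a median of 0.14. In that bin 48 of 1069 were at 1 or more and 9 at −1 or less. PSMA7, a subunit of the core particle, had siLuc values of 415 (DMSO) and 126 (DAC) FPKM and siStau1 values of 248 (DMSO) and 200 (DAC). Its level in siStau1 was 59.8% of siLuc with DMSO and 158% with DAC, and the difference of 1.40 ± 0.62 was the only one of the list at 2 SE. PSMC1 (1.37 ± 0.80) and PSMA4 (1.14 ± 0.67) followed. The median DAC log2 ratio of the list was −0.74 in siLuc and −0.18 in siStau1, and the authors' deposited table called 7 of 23 lower with DAC in siLuc (5.29% of all measured genes tested) and 1 in siStau1 (3.11%).

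Glycolysis and hypoxia genes had a median of 0.40, and 20 of 25 were above 0 (against 7753 of all 16045 measured genes). At −1 or less were 0 (against 10.7%, and 6.31% of measured protein-coding genes). At 1 or more were 3 (12%, against 7.56%, and 4.39% of measured protein-coding genes). The 3 were CA9, a hypoxia-induced carbonic anhydrase (0.462, 0.434, 0.256 and 2.31 FPKM, difference 2.83, no SE), ANKRD37 (1.56 ± 2.76) and ALDOC (1.203 ± 2.29). Abundant enzymes lay nearer to 0, such as GAPDH (−0.14 ± 1.01), LDHA (0.57 ± 0.78) and PGK1 (0.66 ± 0.85). P4HA1, a collagen prolyl hydroxylase outside the list, reached 2 SE at 1.43 ± 0.68. It stood at 33.3 and 27.9 FPKM in siLuc and siStau1 with DMSO and at 12.4 and 28.1 FPKM with DAC, so that this difference lay in the drug level.

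The other protein-coding genes at 2 SE and above 0 were mostly abundant mRNAs with one shape: lower with DAC in siLuc, and less so in siStau1, from a lower start. SNRPG, a core protein of the splicing particles, had siLuc values of 655 (DMSO) and 134 (DAC) FPKM and siStau1 values of 349 (DMSO) and 256 (DAC), a difference of 1.84 ± 0.70. S100A14, a calcium-binding protein of epithelia, had 263, 74.0, 114 and 110 FPKM and a difference of 1.78 ± 0.65. HINT1, a nucleotide hydrolase (496, 183, 257 and 253 FPKM), and BEX3 (195, 62.4, 106 and 91.4 FPKM) had differences of 1.42 ± 0.70 and 1.43 ± 0.68. In each of these 4 genes the siStau1 level was below siLuc with DMSO and above it with DAC. BATF2, an interferon-induced transcription factor, had the shape of the interferon list instead, with 6.02, 16.1, 0.657 and 10.4 FPKM and a difference of 2.39 ± 1.17.

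**Figure D3:**
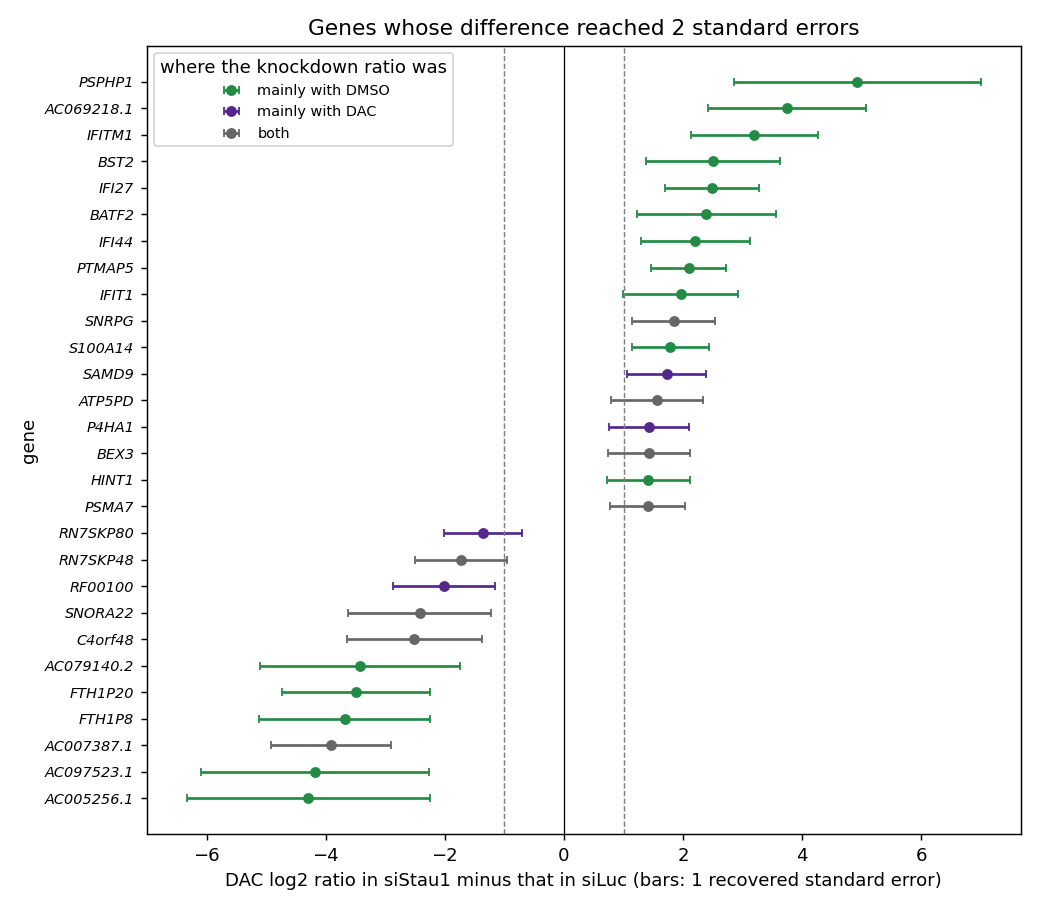
The siStau1 minus siLuc difference for the 28 genes at a size of 1 or more and at 2 SE or more, 1 point per gene with a bar of 1 recovered SE, coloured by where the knockdown ratio was larger. The 17 higher genes include 6 interferon-stimulated genes, and 10 of the 11 lower ones are non-coding RNAs or pseudogenes.

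Protein-coding genes were also ranked among the 9730 at 5 FPKM or more in 1 group and at 1 FPKM or more in 2. Of the 12 highest, 6 were in the interferon-stimulated list (XAF1, IFITM1, IFI44L, OAS2, BST2 and IFI27). OAS2 had 1.61, 15.8, 0.0735 and 10.7 FPKM and a difference of 2.73 ± 8.28, an SE that shows how little so low a value carries. BATF2 and LGALS9, a galectin (10.8, 24.8, 1.04 and 15.8 FPKM, 2.61 ± 2.05), shared their shape. The remaining 4 were HMSD (4.21 ± 5.18), AL139300.1 (2.49 ± 2.76), the meiotic kinase AURKC (2.46 ± 3.43) and SH3BGR (2.26 ± 3.45). In 9 of the 12 highest genes siStau1 DMSO was the lowest of the 4 groups. The ranking itself favours this, since a low siStau1 DMSO level raises the difference and a low siLuc DMSO level lowers it.

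Of the 12 lowest, siLuc DMSO was the lowest group in all 12, which the ranking again favours, and 10 of them were under 3 FPKM there. They were AC024592.3 (−4.83 ± 10.20), RPL3L (−4.04 ± 3.14), HIST1H2AD (−3.65 ± 3.01), PIGY (−3.61 ± 11.82), MCTS2P (−3.51 ± 5.41), IL16 (−3.49, no SE), AC022826.2 (−3.07 ± 4.54), LCK (−2.95 ± 17.51), SMIM4 (−2.68 ± 9.88), TGM1 (−2.67, no SE), KRT14 (−2.58, no SE) and C4orf48 (−2.51 ± 1.13). C4orf48, which encodes a small secreted peptide, was the only protein-coding gene at −1 or less that reached 2 SE. It had siLuc values of 6.003 (DMSO) and 35.8 (DAC) FPKM and siStau1 values of 12.9 (DMSO) and 13.3 (DAC). Its transcript is 73.2% GC, and the difference after centring on GC content was −2.06.

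Replication-dependent histones, whose mRNAs lack a poly(A) tail, had 0 of 21 at 1 or more and 4 at −1 or less (19.0%, against 10.7% of all measured genes), with a median of −0.29. HIST1H2BB had siLuc values of 3.84 (DMSO) and 403 (DAC) FPKM and siStau1 values of 6.94 (DMSO) and 187 (DAC), a difference of −1.95 ± 1.26. HIST1H2BG (−1.56 ± 1.19) and HIST1H3C (−1.42 ± 1.29) were alike, and HIST1H3D is listed at or near 0 in all groups but siStau1 DMSO (16.5 FPKM). The highest member was HIST1H2AE at 0.82 ± 1.46. Histone genes share sequence, so how reads were divided between them is uncertain.

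Metallothioneins, small metal-binding proteins, had a median of −0.66, with 6 of 7 measured members below 0, 2 at −1 or less (28.6%, against 10.7%) and 0 at 1 or more. MT2A had siLuc values of 78.7 (DMSO) and 257 (DAC) FPKM and siStau1 values of 73.6 (DMSO) and 134 (DAC), a difference of −0.85 ± 0.91, and MT1E had −0.66 ± 0.86. The 2 members at −1 or less were MT1F (−1.31 ± 1.61) and MT1A (−1.26, no SE), and all 4 of these lay in the drug level.

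Germline genes are silenced by DNA methylation in most somatic cells. Of 24 genes 21 were measured, and 20 of these had a DAC ratio above 0 in each arm. The authors' deposited table called 17 of the 21 higher with DAC in siLuc (8.61% of all measured genes tested) and 10 in siStau1 (4.44%). MAGEA4 is listed at 0 without the drug, and under DAC its FPKM was 97.5 in siLuc and 119 in siStau1. DAZL (12.3 and 12.6 FPKM with DAC) and GAGE2A (71.6 and 48.5) are likewise listed at 0 with DMSO. The list median was −0.29. At 1 or more was 1 member, DDX4 (4.76%, against 7.56% of all measured genes). At −1 or less were 4, namely MAGEC2, STK31, TEX14 and CTAG2 (19.0%, against 10.7%). Of these members, MAGEC2, CTAG2 and DDX4 have a group at 0. For the 17 members without an SE no error can be given.

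The p53 targets had a median of −0.24, with 1 of 20 at −1 or less (5%, against 10.7%), XPC (−1.15 ± 1.89), and 0 at 1 or more. CDKN1A, the cell cycle inhibitor p21, had siLuc values of 51.1 (DMSO) and 192 (DAC) FPKM and siStau1 values of 47.5 (DMSO) and 163 (DAC), a difference of −0.12 ± 0.67. Among 30 mitosis genes 1 was at 1 or more (3.33%, against 7.56% of all measured genes) and 0 at −1 or less (against 10.7%), with a median of 0.15. The 1 was MZT1 (15.0, 1.87, 21.8 and 7.08 FPKM, 1.33 ± 0.87). Ribosomal proteins had 0 of 42 at 1 or more (against 7.56%) and 0 at −1 or less (against 10.7%). Their median was 0.21, from RPLP1 (−0.79 ± 0.79) to RPL24 (0.96 ± 0.62). In the highest of 10 bins of protein-coding genes by mean FPKM, 48 of 1069 were at 1 or more and 9 at −1 or less, with a median of 0.14. DNA methylation genes had 0 of 12 at 1 or more (against 7.56%) and 0 at −1 or less (against 10.7%). DNMT1, the maintenance methyltransferase, stood at 115, 86.2, 204 and 79.4 FPKM with a difference of −0.95 ± 1.41.

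Over all 31 function lists, 5 medians lay above the upper quartile of all measured genes (interferon-stimulated, interferon ligands and receptors, nuclear respiratory chain, glycolysis and hypoxia, and proteasome), 2 below the lower quartile (mitochondrially encoded and metallothioneins) and 24 between. That of interferon ligands and receptors (0.79) rested on low values. It was 0.10 with a pseudocount of 1 FPKM and 0.26 with 1 FPKM required in all 4 groups, against an upper quartile of 0.37 in the main setting. Outside the interferon-stimulated list, PSMA7 was the only one of the 605 listed genes with a size of at least 1 at 2 SE. In the lists not described so far, apart from structured non-coding RNAs, the members with a size of at least 1 were EGR2 (−2.003, no SE) of the immediate early genes, MMP1 (1.54, no SE) of the extracellular matrix, RPA3 (1.36 ± 0.98) and CDT1 (−1.03 ± 0.96) of DNA replication, FANCM (1.199 ± 1.27) of DNA repair, MAGOH (1.26 ± 1.23) of mRNA surveillance, NKD1 (−1.43 ± 2.16) of the Wnt targets and HMOX1 (−1.04 ± 0.96) of the iron and redox genes.

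**Figure D4:**
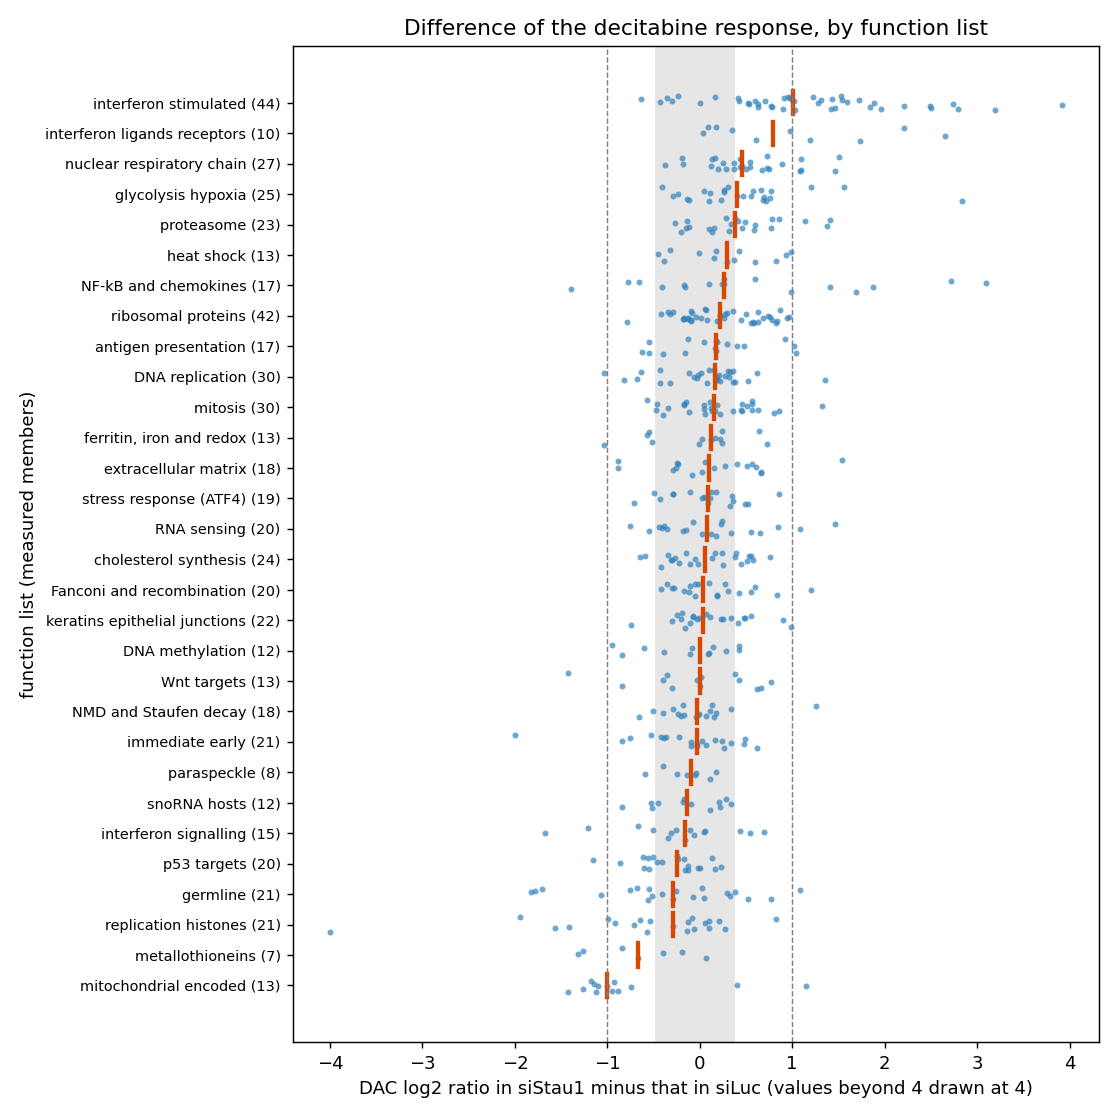
The siStau1 minus siLuc difference for each measured member (point) of 30 function lists, with the list median (vertical bar), the quartile range of all 16045 measured genes (grey band) and 1 and −1 (dashed). The interferon-stimulated list has the highest median at 1.01 and the mitochondrially encoded list the lowest at −1.01. Structured non-coding RNAs are not drawn, and values beyond 4 are drawn at 4.

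Structured non-coding RNAs had the largest values and the least interpretable ones. RN7SK, the scaffold RNA that holds the elongation factor P-TEFb inactive, is listed at 0 in siLuc with DAC, at 80918 FPKM in siLuc with DMSO, and at 110208 (DMSO) and 202720 (DAC) in siStau1. RN7SL1 and RN7SL2, RNAs of the signal recognition particle, are listed at 0 in all groups but siStau1 DMSO (419 and 3640 FPKM). An RNA so abundant in every cell cannot be taken as absent from a 0 in such a list, and no fold is given. In all, 99 measured genes are listed at 0 in a group and at 10 FPKM or more in another, and 58 of them are shorter than 400 bases. RN7SKP80 and RN7SKP48, pseudogenes of RN7SK, and a gene named RF00100 (ENSG00000271394) reached 2 SE at −1.36 ± 0.65, −1.73 ± 0.77 and −2.02 ± 0.85, and how reads were divided among RN7SK and its copies is uncertain. Under the rule for other gene types the 3 highest were RN7SK, a second RF00100 (ENSG00000202198) and RF00019, and the 3 lowest RNU11, RNVU1-14 and SNORA25, each with a group at or near 0.

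GC content moved with every ratio used above. Among 10685 protein-coding genes at 1 FPKM or more in all 4 groups, Spearman's rho with the GC content of the longest transcript was 0.66 (siLuc) and 0.63 (siStau1) for the DAC ratio, −0.49 for the knockdown with DMSO, −0.73 for the knockdown with DAC and −0.30 for the difference, as a description over genes. The median difference was 0.25 in the lowest of 20 GC bins and −0.38 in the highest. Centring each gene on its GC bin left the median difference of the interferon-stimulated list at 1.09 and that of the mitochondrially encoded list at −1.07. Whether library preparation or the cells gave rise to the trend with GC content was not tested.

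**Figure D5:**
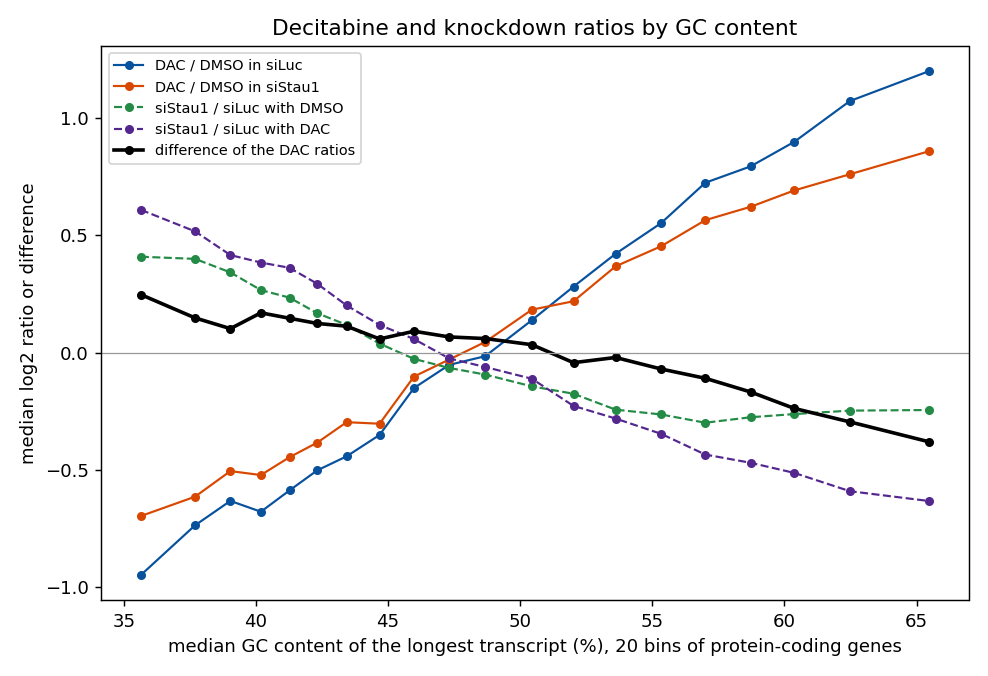
Median log2 ratio in 20 equal bins of transcript GC content over 10685 protein-coding genes, for the DAC ratios (solid, coloured), the knockdown ratios (dashed) and the difference (black). Both DAC ratios are higher and both knockdown ratios lower at high GC content, and the difference runs from 0.25 to −0.38.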

How the data were processed

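Total RNA from HCT116 cells was sequenced in 4 groups of 2 libraries, and the table gives 1 value per group for each of 6 pairwise comparisons. The deposited FPKM values, test scores, p-values and q-values were made by the authors; Cuffdiff 2.2.1, Cuffnorm 2.2.1, HISAT2 2.1.0 and hg38 are named in the submitters' processing notes, while the library scaling, the annotation and the handling of reads with several matches are not given in the sources used here. Annotation was matched to GENCODE release 29 by versioned gene ID, which 58698 genes carried; the 1 gene left out, ZNF468, had group values that differed between comparisons. Depth is unknown, so no counting interval is given.

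Log2 ratios used a pseudocount of 0.1 FPKM, which understates the change of low genes. SEs were recovered from the deposited scores for groups above 0.01 FPKM, and the code was tested on simulated data. Centring used the median of 20 bins of transcript GC content. Since single values per group allow no test over samples, thresholds of size (1 on the log2 scale) and of 2 SE take its place. Named genes were the 12 highest and 12 lowest protein-coding genes and the 3 highest and 3 lowest others (at least 5 FPKM in 1 group and 1 FPKM in 2), the extremes of each list, and a fixed set of interferon genes and controls. Other genes, such as those at 2 SE, were named after their values were seen. Some genes under this rule are not reported here. The members, lists and this rule were chosen with earlier results of these data known. Promoters came from RefSeq, matched by symbol for 36 of 44 interferon-stimulated genes. No per-sample column was left unmapped, and J2-bound RNA was not used. Alternatives were other pseudocounts, filters, scaling, GC centring and thresholds. Python 3.11.15, pandas 2.3.3, numpy 2.4.6, scipy 1.17.1 and matplotlib 3.10.9 were used.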

Additional observations from a re-analysis of the deposited data

Results flagged for a closer look

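The DAC log2 ratio differed between the siStau1 and siLuc arms by at least 1 and by at least 2 recovered standard errors for 28 genes, and none of these passed an adjustment over all 13784 genes with an error. The 6 interferon-stimulated genes among them were IFITM1 (3.19), BST2 (2.497), IFI27 (2.49), IFI44 (2.21), IFIT1 (1.96) and SAMD9 (1.73). The other 8 higher protein-coding genes were BATF2 (2.39), SNRPG (1.84), S100A14 (1.78), ATP5PD (1.57), P4HA1 (1.43), BEX3 (1.43), HINT1 (1.42) and PSMA7 (1.40).

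Among pseudogenes, PSPHP1 (4.92), AC069218.1 (3.75) and PTMAP5 (2.09) were higher. PSPHP1 had siLuc values of 12.6 (DMSO) and 3.70 (DAC) FPKM and siStau1 values of 0.576 (DMSO) and 6.10 (DAC). PTMAP5 had 471, 157, 158 and 224 FPKM in the same order, and its reads may belong to the parent gene.

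The 11 lower genes were AC005256.1 (−4.29), AC097523.1 (−4.19), AC007387.1 (−3.91), the ferritin pseudogenes FTH1P8 (−3.68) and FTH1P20 (−3.50), AC079140.2 (−3.43), C4orf48 (−2.51), SNORA22 (−2.42), RF00100 (−2.02), RN7SKP48 (−1.73) and RN7SKP80 (−1.36). SNORA22, a small nucleolar RNA, had siLuc values of 299 (DMSO) and 1758 (DAC) FPKM and siStau1 values of 588 (DMSO) and 644 (DAC). RN7SKP80 had 2425, 8562, 3037 and 4172 FPKM. In both, siLuc DAC was the highest group.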

How the results depend on the processing

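No paired analysis was possible because the deposited table holds 1 value per group and no value per library, and for the same reason leaving out a library was not run. Depth is unknown, and the recovered error comes from the authors' model of 2 libraries per group. How far it reflects the spread between these libraries cannot be told from 1 value per group, so no difference is placed directly against that spread.

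The counts of genes at 1 or more and at −1 or less (1213 and 1710) followed the threshold and the low values. They were 607 and 935 with a pseudocount of 1 FPKM, 439 and 593 with 1 FPKM required in all 4 groups, 463 and 619 with 5 FPKM in 1 group, 3854 and 5132 with no filter, 553 and 796 for protein-coding genes, 628 and 921 at a size of 1.5, and 17 and 11 at 2 SE.

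The placement of higher genes in the baseline, the drug level and both (581, 346 and 286) became 305, 155 and 147 with a pseudocount of 1, 183, 140 and 116 with 1 FPKM in all 4 groups, 199, 159 and 105 with 5 FPKM, 1609, 1376 and 869 with no filter, and 242, 173 and 138 for protein-coding genes. That of lower genes (598, 567 and 545) became 330, 338 and 267, then 145, 213 and 235, then 168, 240 and 211, then 1705, 2192 and 1235, and 210, 291 and 295 in the same order of settings. With a share of 0.6 in place of 2/3, 153 higher and 332 lower genes lay in both. Among higher genes the baseline was the most frequent placement in every setting run. Among lower genes the drug level or both came first in the 5 settings just listed. The baseline led among lower genes in the main setting. It also led among them with a pseudocount of 0.01, upper-quartile scaling, GC centring or a share of 0.6. After GC centring fewer genes lay in the drug level than in the main setting, among higher and lower genes alike.

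Of the 22 interferon-stimulated genes at 1 or more, 14 reached 1.5 and 6 reached 2 SE. For mitochondrially encoded genes at −1 or less the count of 7 became 0 under each of these rules. The nuclear respiratory chain count of 5 became 2 after GC centring, 1 at 1.5 and 0 at 2 SE, and the proteasome count of 3 became 0 at 1.5 and 1 at 2 SE. All 4 list medians (1.01, −1.01, 0.46 and 0.38) stayed on their side of 0 in every setting run. Of 106 genes named by rule, 7 had another sign in a setting. IFNL2 (−0.32) and IFNL3 (−0.34), at 1 or more in the main setting, had it with a pseudocount of 1, and so did MT1H (−0.13). RTP4 (0.20) had it with a pseudocount of 0.01, and IRF7 (0.14), CDKN1A (0.09) and IL10RB (−0.08) after GC centring. HELZ2 and LGALS3BP, named outside the rule, were above 0 after GC centring. Scaling to the upper quartile or a pseudocount of 0.01 left all 12 counts computed under them within 1.5 times.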

Other observations

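The following were noticed after the values were seen and are given as values. Box H/ACA small nucleolar RNAs, named SNORA in the table and known for guiding pseudouridylation, had a median difference of −1.195 over 108 measured genes. Of these, 14 were at 1 or more (13.0%, against 7.56% of all measured genes) and 62 at −1 or less (57.4%, against 10.7%). Their SE, given for 76 of them, had a median of 6.42, and 4 were at 1 SE or more. Their median DAC log2 ratio was 1.98 in siLuc and 0.82 in siStau1, and 37 of the 62 lay in the drug level. Box C/D RNAs, named SNORD and known for guiding ribose methylation, had a median of −0.04 over 20 measured genes. Of these, 6 were at 1 or more (30%) and 4 at −1 or less (20%). Of the 108 SNORA genes, 26 are listed at 0 in a group. A high share at −1 or less was not particular to SNORA, and other classes scattered in both directions. Of 84 small nuclear RNA genes, 44.0% were at −1 or less and 26.2% at 1 or more, and 38 are listed at 0 in a group. Of 126 genes annotated as miscellaneous RNA, 47.6% were at −1 or less and 27.0% at 1 or more, and 64 are listed at 0 in a group.

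Among protein-coding genes at 1 FPKM or more in all 4 groups, the difference moved with the level. In the lowest of 10 bins by mean FPKM the median was −0.19, with 32 of 1069 genes at 1 or more and 98 at −1 or less. In the highest bin it was 0.14, with 48 and 9 of 1069.

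Of the 99 genes listed at 0 in a group and at 10 FPKM or more in another, 75 (siLuc) and 62 (siStau1) were at 0 with DMSO, and 30 (siLuc) and 19 (siStau1) with DAC.

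CDX2, a transcription factor of intestinal epithelium, had siLuc values of 7.31 (DMSO) and 7.11 (DAC) FPKM and siStau1 values of 2.76 (DMSO) and 7.47 (DAC), a difference of 1.45 ± 1.52. KRT18 and KRT19, keratins of simple epithelia, had differences of −0.10 and −0.19.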
